A study of Rattus norvegicus with 6 samples.

Results

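The proteins of the cytosolic ribosome are encoded by a large set of small, very highly expressed genes, and this is a description of how their messages stood in rat H9C2 cells after knockdown of PUM2. The genes were taken by symbol: protein-coding rows of the count table whose symbol starts with Rpl, Rplp or Rps and a digit, or equals Rpsa, without the ribosomal protein S6 kinases (Rps6k). The rule gave 98 of 19825 rows. By symbol, 44 were standard large subunit genes, 29 standard small subunit genes and 25 variants, that is, paralogs and numbered copies. Messenger RNA was measured by RNA sequencing of polyadenylated RNA in 6 libraries. The 3 libraries named siPUM2 came from H9C2 cells transfected with small interfering RNA against PUM2, an RNA-binding repressor of the Pumilio family, and the 3 named NC from H9C2 cells that the labels describe as an empty vector transfection control. By those labels the groups differ in the kind of nucleic acid transfected as well as in its target. The labels give no dose or time after transfection, and they do not state whether each library is a culture of its own. All p-values below therefore measure only the spread between these libraries, which may be technical.

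Ribosomal proteins are built in nearly equal numbers, since each ribosome holds about one copy of each, and cells keep their synthesis in step mainly through translation. Most of their messages start with a C followed by a run of pyrimidines, the 5′ terminal oligopyrimidine (TOP) motif, through which mTOR signalling and the RNA-binding protein LARP1 set the translation and stability of the whole class. Free ribosomal proteins are degraded quickly, and the pair RPL5 and RPL11, when not built into ribosomes, binds MDM2 and so raises p53.

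The starts of these genes are shown first because the TOP motif is the one sequence feature for which the class is known. RefSeq promoter sequences (build GRCr8, not the build mRatBN7.2 of the counts) could be matched by symbol or older symbol and chromosome for 73 of the 98 genes. The windows run 5′ to 3′ from 15 bases before the annotated start to 15 bases after it, counting the start itself, and capitals mark the pyrimidine run from the annotated start. Rpl10 and Rps3a had such a run and fell in siPUM2, Rplp0, Rpl39 and Rps18 had one and were not called, and Rps2, Rps12 and Rpl7a had none at the annotated start.
Rpl10: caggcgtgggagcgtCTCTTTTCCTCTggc
Rps3a: gagttgtacttccgcCCTTTTggctctcag
Rplp0: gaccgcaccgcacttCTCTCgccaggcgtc
Rpl39: tcttctaatcgcgttCTTCCggcctgtcct
Rps18: cacgtcacttccgctCTCTCTTCCacagga
Rps2: cctcttctttttcttcgggaaaacacgtga
Rps12: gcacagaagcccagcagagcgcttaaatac
Rpl7a: ctctcctccagccgagcaagatggtgagtg
In the order shown, these windows lie at chrX:157205835-157205864 (plus strand), chr2:173827028-173827057 (minus), chr12:46718376-46718405 (minus), chrX:121195882-121195911 (minus), chr20:4933730-4933759 (plus), chr10:14251833-14251862 (plus), chr1:23500060-23500089 (plus) and chr3:30637121-30637150 (plus). In Rps2 a pyrimidine run lies just before the annotated start, and in Rpl7a a run lies at the upstream end of the window, a few bases further from the start.

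The libraries held 27704702 to 30579237 counts, so that 1 count was worth 0.0326 to 0.0360 CPM (counts scaled to a common library size, with TMM factors). Mitochondrial genes took 5.98% to 6.32% of the counts, and ribosomal RNA 0.102% in siPUM2 3 against 0.0275% to 0.0510% in the other libraries. Pum2, the targeted gene, stood at 223, 228 and 225 CPM in NC and at 127, 126 and 120 CPM in siPUM2, a log2 fold change of -0.86 ± 0.0279 (SE; adjusted p = 9.23e-19, edgeR). The labels call the cells cardiomyocytes. Of 11 cardiomyocyte markers 10 were in the table, and Myh7, Tnni3, Actn2, Ryr2, Myl2 and Myl7 lay between 0 and 0.179 CPM. The summed level of that list was 279 to 335 CPM in NC and 445 to 501 CPM in siPUM2, mostly from Tnnt2 (cardiac troponin T), which rose with Pln (log2 fold changes 0.67 and 0.83), while the other tested markers, Myh6 and Nppb, were not called. Of 4 tested myoblast markers 2 fell, 1 rose and Myod1, at 77.3 to 87.8 CPM, was not called. Myog fell from 15.9, 24.4 and 19.9 CPM to 9.68, 9.22 and 8.79 CPM, Myh3 fell as well (log2 fold change -0.93), and Des rose (0.17), a call that DESeq2 did not make. Of 4 tested fibroblast markers 2 fell, Col1a1 and Pdgfrb (log2 fold change -0.08 each), and Thy1 rose (0.31), while DESeq2 called 1 lower. The summed fibroblast list stood at 17116 to 17202 CPM in NC and at 16731 to 17173 CPM in siPUM2, mostly collagen I, with Pdgfra, Dcn and Lum at 0 to 0.199 CPM. The part of these marker genes in the results below was not tested. Endothelial, leukocyte and neural lists summed to at most 2.64 CPM in any library, with Tubb3, at 0.286 to 1.10 CPM, the one member called (higher).

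Ribosomal protein messages were slightly lower in siPUM2, and no gene of the class was called higher. Of the 44 standard large subunit genes 23 (52.3%) fell at an adjusted p under 0.05, of the 29 standard small subunit genes 18 (62.1%), and of the 14 variants that passed the filter on low counts 4. Over all 12985 genes tested, 13.3% were called lower and 15.1% higher, 28.4% in all. Among the 1939 other genes with a mean of at least 100 CPM, a level that all standard genes but the row Rpl37 exceed, 29.5% were called lower and 26.3% higher. The count of 0 higher calls was also 0 with DESeq2 and with limma voom, which called 12.8% and 15.3% of all genes higher, and at an unadjusted p under 0.05 it was 1, the variant Rps27l. With each library's trend over gene length removed the higher count was 2, Rps28 and Rps27l, where 17.1% of all genes were called higher. The large subunit count was 35 without siPUM2 3 (13.2% of all genes lower), and 13 on log2(FPKM + 1) values with no filter (5.56% lower), where the small subunit count was 11. With no filter, and likewise at an adjusted p under 0.01, 8.67% of all genes were called lower, and in the other alternatives 10.6% to 16.1%.

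Some rows carry names that RefSeq has since changed. By RefSeq's current names and the chromosome, the rows Rps9l1, Rps19l2 and Rpl35al1 are the standard genes Rps9, Rps19 and Rpl35a, and the row Rpl37, at 3.43 to 5.67 CPM, is the copy Rpl37l1 (log2 fold change -0.31, not called). The standard L37 gene stands in the table as LOC120093056, outside the rule, at 613, 611 and 578 CPM in NC and 565, 588 and 608 CPM in siPUM2 (log2 fold change -0.03, not called). Named this way, a choice made after the table was seen, there were 75 standard genes, and all passed the filter. Of these, 43 (57.3%) fell, 23 of 44 in the large subunit and 20 of 31 in the small subunit, and none was called higher. Their median log2 fold change was -0.08 against 0.00 over all genes tested, and 70 of the 75 values were below 0. The genes that fell did so 1.05-fold to 1.16-fold, with a median of 1.08-fold. In 39 of the 75 all siPUM2 libraries lay below all NC libraries, and in none above, where the shares over all genes tested were 19.2% and 20.7%. Among the 1939 other genes of at least 100 CPM, all siPUM2 libraries lay below in 647 and above in 584.

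**Figure D1:**
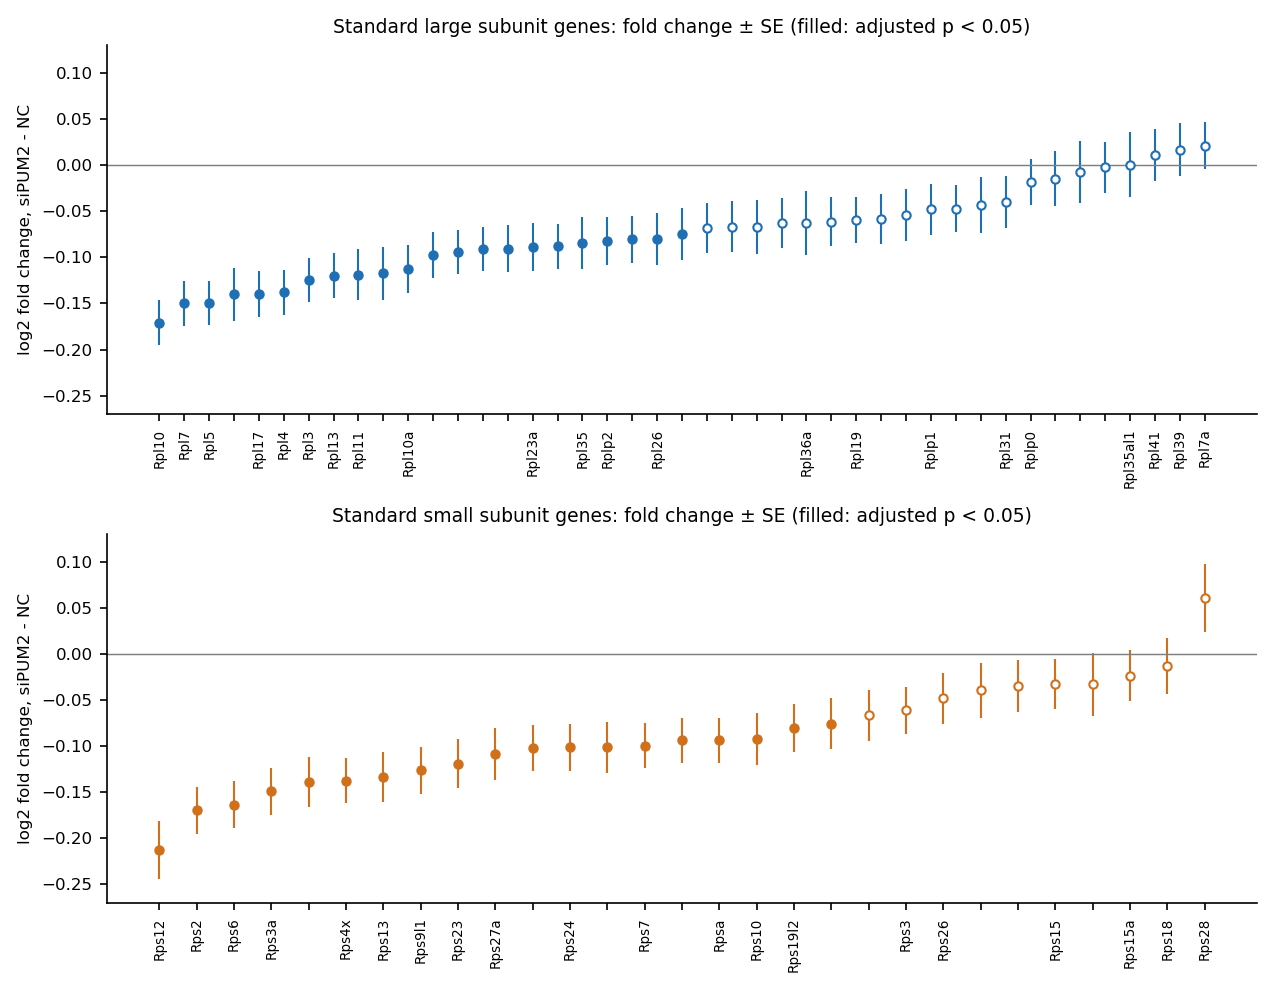
Log2 fold change of siPUM2 over NC (vertical axis) with its SE for standard ribosomal protein genes, large subunit above and small subunit below, ordered by fold change and labelled where the text names the gene; genes not reported here are left out. Filled circles are genes with an adjusted p under 0.05 by edgeR; all of them lie under 0, from Rps12 at -0.21 upwards.

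The size of the difference varied with the library. Against the mean of NC, the median of the 75 genes was at a log2 ratio of 0.02, 0.02 and -0.04 in NC 1, 2 and 3 and at -0.10, -0.10 and -0.04 in siPUM2 1, 2 and 3. NC 3 was the lowest NC library for 70 of the 75 genes, and siPUM2 3 the highest siPUM2 library for 74. Without siPUM2 3, 59 of the 75 genes fell. Without NC 3 it was 53, and without NC 2, 31, where 13.2%, 11.2% and 10.6% of all genes tested were called lower. The median was -0.11 without siPUM2 3, which is also the library with the highest share of ribosomal RNA. The part of that share in the result was not tested.

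**Figure D2:**
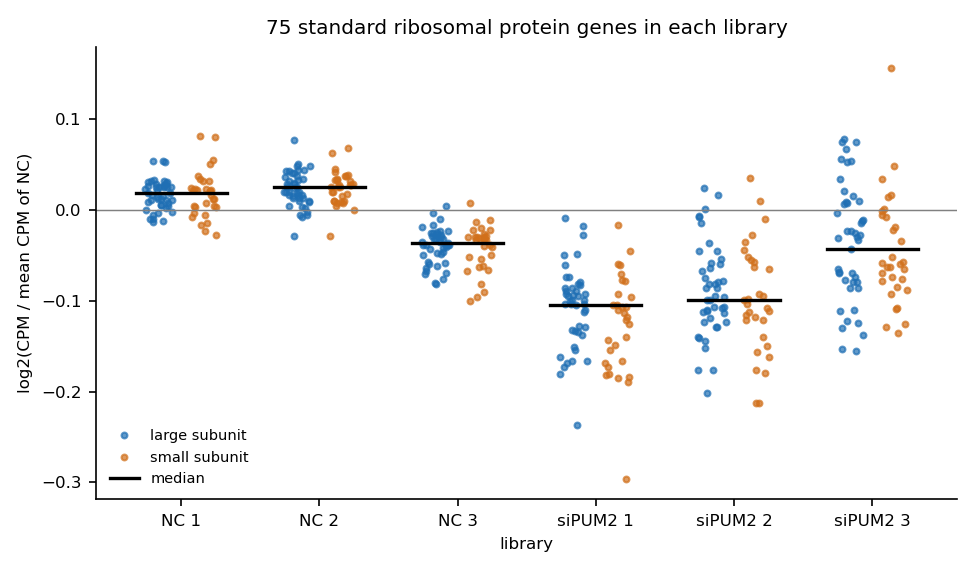
Each point is 1 of the 75 standard genes in 1 library, as the log2 ratio of its CPM to its mean over the NC libraries, with large subunit genes in blue, small subunit genes in orange and a black bar at the median. The bars of siPUM2 1 and 2 lie at -0.10, and those of NC 3 and siPUM2 3 both at -0.04.

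All 98 genes together took 6.31%, 6.33% and 6.10% of the counts in NC 1, 2 and 3 and 5.80%, 5.87% and 6.04% in siPUM2 1, 2 and 3. The mean was 6.25% ± 0.126 in NC and 5.90% ± 0.121 in siPUM2 (SD, n = 3 each), and the groups did not overlap, with siPUM2 3 close below NC 3. The summed counts of the 31 small subunit genes were 0.682, 0.685 and 0.682 of those of the 44 large subunit genes in NC and 0.670, 0.674 and 0.675 in siPUM2. Every siPUM2 library was lower in this ratio, with means of 0.683 ± 0.00186 in NC and 0.673 ± 0.00255 in siPUM2 (SD, n = 3 each). In bulk libraries such as these, fewer cells of a type and less RNA per cell cannot be told apart, and shares and CPM show changes only relative to all other messages.

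Among large subunit genes with a low p, Rpl10, Rpl7, Rpl5, Rpl4 and Rpl17 fell in every siPUM2 library. Rpl10, which encodes a late-joining protein near the tRNA sites, fell from 1086, 1098 and 1056 CPM to 953, 956 and 970 CPM (log2 fold change -0.17 ± 0.0244, adjusted p = 3.58e-06, edgeR's quasi-likelihood test, Benjamini-Hochberg adjusted), with the siPUM2 libraries close together. Rpl7 was at 838, 840 and 817 CPM in NC and at 740, 749 and 760 CPM in siPUM2 (log2 fold change -0.15). In both genes every siPUM2 library was below every NC library.

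RPL5 and RPL11 enter the ribosome together with the 5S ribosomal RNA, and both of their messages fell. Rpl5 was at 784, 780 and 763 CPM in NC and at 691, 702 and 705 CPM in siPUM2 (log2 fold change -0.15 ± 0.0241, adjusted p = 2.16e-05, edgeR). Rpl11 was at 529, 535 and 495 CPM and at 474, 481 and 481 CPM (log2 fold change -0.12 ± 0.0274, adjusted p = 0.00144, edgeR). In both genes every siPUM2 library was below every NC library, by a wider margin in Rpl5.

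Of the genes for proteins that line the tunnel through which the new chain leaves the ribosome, Rpl4 and Rpl17 fell and Rpl39 was not called, and the difference between them was not tested. Rpl4 fell from 1122, 1081 and 1106 CPM to 986, 1009 and 1014 CPM (log2 fold change -0.14, adjusted p = 7.84e-05, edgeR). Rpl17 fell from 457, 445 and 440 CPM to 402, 406 and 410 CPM (log2 fold change -0.14, adjusted p = 8.19e-05, edgeR). Rpl39, which encodes a very small protein of the tunnel wall, was at 458, 476 and 452 CPM in NC and at 446, 470 and 486 CPM in siPUM2, overlapping throughout (log2 fold change 0.02 ± 0.0288). Of 5 genes of the tunnel rim, Rpl23a, Rpl26 and Rpl35 fell and Rpl19 and Rpl31 were not called. That count ran from 0 without NC 2 or siPUM2 1 and 1 without NC 1 or siPUM2 2 to 5 without siPUM2 3. Of all 75 standard genes 43 (57.3%) fell, with 31 without NC 2 and 59 without siPUM2 3. Of all genes tested 13.3% fell.

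The lateral stalk, which recruits the translation factors with GTPase activity, is made of RPLP0 and of several copies of RPLP1 and RPLP2. Rplp0 was at 2479, 2450 and 2375 CPM in NC and at 2405, 2360 and 2449 CPM in siPUM2, with overlapping groups (log2 fold change -0.02 ± 0.025, adjusted p = 0.646, edgeR). Rplp1 was at 899, 885 and 855 CPM and at 836, 829 and 889 CPM (log2 fold change -0.05, adjusted p = 0.211, edgeR). It was called without siPUM2 3, whose value lay within the NC range. Rplp2 fell from 961, 969 and 938 CPM to 884, 886 and 939 CPM (log2 fold change -0.08, adjusted p = 0.0191, edgeR), a call lost without any of NC 1, NC 2, siPUM2 1 or siPUM2 2. Of 4 genes on the tRNA side of the subunit, Rpl3, Rpl10 and Rpl10a fell and Rpl36a was not called, beside 57.3% of all 75 standard genes that fell.

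The large subunit genes with the highest fold changes were Rpl7a, Rpl39 and Rpl41, and none of them was called. Rpl7a was at 808, 800 and 770 CPM in NC and at 787, 802 and 824 CPM in siPUM2, a log2 fold change of 0.02 ± 0.0258. Per gene length, Rpl41 had the highest level of the class, with a mean of 4433 FPKM (fragments per length of the gene and size of the library) over the 6 libraries, followed by Rplp0 with 1960 FPKM. In CPM, Rpl41 was at 2275, 2269 and 2133 in NC and at 2183, 2212 and 2330 in siPUM2, with the lowest value in NC 3 and the highest in siPUM2 3 (log2 fold change 0.01 ± 0.0282). Rpl13, the third highest large subunit gene at 1634 FPKM, fell from 1408, 1380 and 1360 CPM to 1260, 1255 and 1302 CPM (log2 fold change -0.12, adjusted p = 0.000462, edgeR). The genes with the highest levels per length thus included both called and uncalled ones.

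In the small subunit Rps12, which encodes a protein of the beak, fell most of the 75 standard genes. It was at 346, 350 and 334 CPM in NC and at 280, 296 and 313 CPM in siPUM2. All siPUM2 libraries were below all NC libraries, and siPUM2 3 was the nearest to them. The log2 fold change was -0.21 ± 0.0311 (SE), a level 1.16-fold lower (adjusted p = 5.09e-06, edgeR). A row described as S12-like on another chromosome, LOC100361933, was at 254, 258 and 250 CPM and at 213, 212 and 220 CPM (log2 fold change -0.24, adjusted p = 4.19e-08, edgeR). Rows described as S12 copies held 43.6% of the counts of the S12 sum, and the sum of all of them with Rps12 fell by 0.23 on the log2 scale (adjusted p = 3.08e-07, edgeR). How the counting divided reads between such near-identical copies is not given, so the level of each is uncertain.

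Rps2 encodes a protein at the mRNA entry channel. It was at 2033, 2007 and 1965 CPM in NC and at 1780, 1728 and 1830 CPM in siPUM2, with no overlap (log2 fold change -0.17 ± 0.0256, adjusted p = 8.03e-06, edgeR). Rps6, the target of the S6 kinases downstream of mTOR, fell from 937, 928 and 902 CPM to 811, 814 and 845 CPM (log2 fold change -0.16 ± 0.0253, adjusted p = 1.19e-05, edgeR). Rps3a fell from 1010, 1036 and 992 CPM to 893, 909 and 939 CPM (log2 fold change -0.15). In each of these genes the groups were apart, and siPUM2 3 was the highest of its group.

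Rps4x, an X-linked gene, fell from 1117, 1130 and 1098 CPM to 1001, 1005 and 1035 CPM (log2 fold change -0.14, adjusted p = 7.74e-05, edgeR). Rpsa, which encodes a protein near the neck of the subunit that is also known as the laminin receptor precursor, fell less, from 1480, 1465 and 1422 CPM to 1345, 1360 and 1387 CPM (log2 fold change -0.09, adjusted p = 0.00455, edgeR). All 4 genes listed for the beak, head and neck, Rps10, Rps12, Rps27a and Rpsa, fell, a count that was 2 without NC 2. Of 4 at the mRNA entry and decoding site, Rps2 and Rps23 fell and Rps3 and Rps15 were not called, and 3 fell without NC 3 or siPUM2 3. Of all 75 standard genes 43 (57.3%) fell, with 31 without NC 2, 53 without NC 3 and 59 without siPUM2 3.

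Rps28, Rps18 and Rps15a had the highest fold changes of the standard small subunit genes, and none was called. Rps28 was at 532, 508 and 470 CPM in NC and at 497, 516 and 561 CPM in siPUM2 (log2 fold change 0.06 ± 0.0367, adjusted p = 0.235, edgeR). Its NC values spread widely and overlapped those of siPUM2. With each library's trend over gene length removed, its log2 fold change was 0.09 and it was called higher (adjusted p = 0.0148, edgeR). Rps18 was at 749, 751 and 690 CPM and at 707, 708 and 755 CPM, a log2 fold change of -0.01 that came to 0.01 in that setting. Rps15, with 1771 FPKM one of the highest small subunit genes per length beside Rps2 (1786 FPKM) and Rps13 (1577 FPKM), was at 1019, 1014 and 953 CPM and at 948, 976 and 995 CPM (log2 fold change -0.03), with overlapping groups. Rps13 fell from 979, 1010 and 964 CPM to 866, 893 and 932 CPM (log2 fold change -0.13, adjusted p = 0.00038, edgeR).

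Several of these genes are mutated in Diamond-Blackfan anaemia, an inherited failure of red cell production. Of 8 listed, Rpl5, Rpl11, Rps7, Rps10, Rps24 and the row Rps19l2 fell, and Rps26 and the row Rpl35al1 were not called. Of all 75 standard genes 57.3% fell. The row Rps19l2, the gene most often affected in the disease, was at 859, 860 and 849 CPM in NC and at 785, 802 and 843 CPM in siPUM2 (log2 fold change -0.08, adjusted p = 0.0214, edgeR). Its siPUM2 3 value lay just under the NC values, and its call was lost without any of NC 1, NC 2, siPUM2 1 or siPUM2 2. The row Rpl35al1 was at 161, 170 and 153 CPM and at 153, 160 and 170 CPM, with a log2 fold change of 0.00. The row Rps9l1 fell from 662, 656 and 639 CPM to 582, 600 and 612 CPM (log2 fold change -0.13, adjusted p = 0.000364, edgeR).

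Of the true paralogs, Rpl7l1 and Rpl22l1 were called, both lower, and Rpl7l1 had the larger difference. It is a nucleolar relative of Rpl7 that takes part in ribosome assembly. Rpl7l1 was at 221, 215 and 202 CPM in NC and at 180, 178 and 179 CPM in siPUM2. The siPUM2 libraries were nearly equal and all below NC, with a log2 fold change of -0.25 ± 0.0291, a level 1.19-fold lower (adjusted p = 1.5e-07, edgeR). As a share of the counts of Rpl7, Rpl7l1 stood at 26.4%, 25.5% and 24.8% in NC and at 24.3%, 23.8% and 23.5% in siPUM2. The groups were apart, but the exact two-sided permutation test of the log2 ratio gave the smallest p that 3 against 3 libraries allow, 0.1 (0.55 adjusted over the 11 pairs tested).

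Rps27l, a p53-induced relative of Rps27, was the tested paralog of more than 10 CPM with the highest fold change. It was at 263, 266 and 245 CPM in NC and at 266, 267 and 280 CPM in siPUM2 (log2 fold change 0.07 ± 0.0297, adjusted p = 0.0801, edgeR), and it was called higher with the length trend removed (0.08, adjusted p = 0.0102, edgeR). Rps27 itself was at 332, 314 and 315 CPM and at 297, 308 and 313 CPM (log2 fold change -0.07, adjusted p = 0.0721, edgeR). The counts of Rps27l were 79.3%, 84.7% and 77.8% of those of Rps27 in NC and 89.6%, 86.8% and 89.3% in siPUM2. Every siPUM2 library was higher in this ratio (exact two-sided permutation p = 0.1, the smallest possible, and 0.55 adjusted over the pairs).

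Rpl22l1, which can stand in for Rpl22, was at 159, 169 and 165 CPM in NC and at 146, 150 and 162 CPM in siPUM2, and was called lower (log2 fold change -0.10, adjusted p = 0.015, edgeR) with groups that overlapped. The call was lost without NC 2, siPUM2 1 or siPUM2 2, and the row Rps19l2 lost its call in the same settings, so that the 4 variants called were 2 without any 1 of these libraries. Rpl22 fell alongside, from 212, 215 and 203 CPM to 186, 195 and 200 CPM (log2 fold change -0.12), and the ratio of Rpl22l1 to Rpl22 overlapped between the groups. Rpl36al, an intronless relative of Rpl36a, was at 161, 168 and 163 CPM and at 157, 167 and 174 CPM (log2 fold change 0.02, not called), and its ratio to Rpl36a overlapped as well. The other 7 tested variants, Rpl27-l1, Rpl31l4, Rpl39l, Rps10l1, Rps12l2, Rps15al4 and Rps18l1, lay between 0.320 and 8.54 CPM, had overlapping groups and were not called. The remaining 11 rows had 0 to 9 counts in each library and did not pass the filter, among them Rpl22l2, Rpl30l1, Rpl31l2, Rpl3l, Rpl5l1, Rplp0l1, Rps12l3, Rps15al2, Rps19l1 and Rps19bp1. Rpl3l, the muscle-restricted relative of Rpl3, had at most 2 counts in a library. Rps19bp1 meets the rule by its symbol but encodes a protein that binds RPS19.

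**Figure D3:**
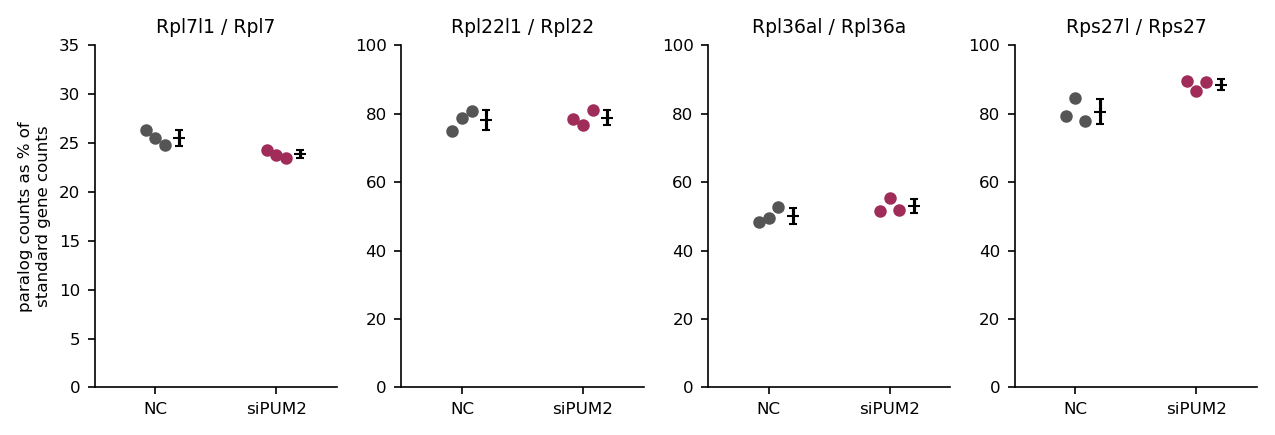
Counts of 4 paralogs as a percentage of the counts of their standard gene in each library (points), with the mean and SD of each group (n = 3) beside them. Vertical axes start at 0 and the first ends at 35, the others at 100. The groups are apart for Rpl7l1 over Rpl7, lower in siPUM2, and for Rps27l over Rps27, higher in siPUM2, and overlap for the other pairs.

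Gene length went with the fold change within the class. Lengths were taken as counts over FPKM, relative to the median tested gene. Of the 25 shortest standard genes 9 fell (median log2 fold change -0.05). The middle 25 had 16 that fell and a median of -0.09, and the 25 longest had 18 and -0.10. Other tested genes in the length range of the shortest group had a median of -0.05, with 18 of 165 called lower, and those in the range of the longest group a median of -0.01, with 399 of 2384 called lower. These other genes are all those outside the symbol rule, so they still include some ribosomal protein rows. In the shortest range, Fau, the S12-like LOC100361933 and the L30-like LOC100362027 were called lower, and the L37 row LOC120093056 was not called. Without siPUM2 3 the shortest group had 15 that fell, without siPUM2 2, 5, and without NC 1, NC 2 or siPUM2 1, 6 each. Across the 75 genes the correlation of fold change with length was r = -0.33 (Spearman -0.39), against 0.08 over the 11408 genes tested that had a length. With the trend over all genes removed it was -0.41 (Spearman -0.46), against 0.0015. These are correlations across genes, which share the same 6 libraries and are not independent replicates. With that trend removed 41 of the 75 genes were lower, all 41 among the 43, and 1 higher, with a median of -0.07, where 16.1% of all genes were lower and 17.1% higher.

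**Figure D4:**
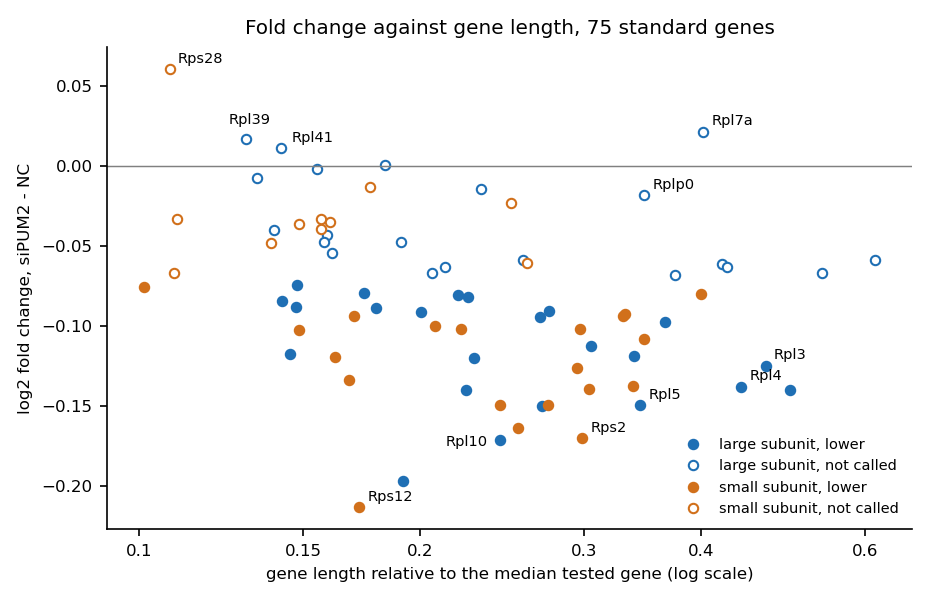
Log2 fold change of siPUM2 over NC (vertical axis) against gene length relative to the median tested gene (log scale) for the 75 standard genes. Filled circles fell at an adjusted p under 0.05; genes near 0 on the vertical axis lie mostly at the short end, and Rpl7a and Rplp0 are longer genes that were not called.

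The share of genes with a TOP start was then compared with the calls. A start was counted where the annotated first base was C and the next 4 bases were all C or T. Of the 60 standard genes with a promoter sequence 22 (36.7%) had one, against 2.63% of all 33469 RefSeq promoters in the table and 2.86% of the 11626 of them that belong to tested genes. Allowing the start to lie within 5 bases of the annotated one gave 38 of 60 (63.3%) against 17.04% and 17.8%. Among the 32 genes that fell, 10 had a TOP start at the annotated base, and among the 28 others 12. Over the 60 genes the median log2 fold change was -0.07 with and -0.09 without it. With the start allowed to lie within 5 bases, the counts were 21 of the 32 and 17 of the 28. The medians were then -0.09 with and -0.07 without it, so their order depended on the definition. The run CTTTCC on the sense strand within the 30 bases around the start, which can overlap the TOP motif, was found in 25% of the 60 genes, in 1.24% of all promoters and in 1.45% of those of tested genes, in 5 of the 32 and 10 of the 28. CTTCCGG, the core of ETS factor sites, was found on either strand of the 300 bases in 31.7%, against 8.75% of all promoters and 17.3% of those of tested genes, in 10 of the 32 and 9 of the 28. AAGATGG, read by YY1, was found likewise in 15% against 7.01% and 8.09%, in 2 and 7. TATAAA on the sense strand was found in 8.33%, below the 8.80% of all promoters and above the 4.52% of those of tested genes, which is 5 of the 60 genes. These matches describe letters in a window around annotated starts.

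Ribosomal proteins whose genes fall outside the symbol rule, and other messages with TOP starts, were read from the same fit. Rack1, the scaffold protein of the small subunit head, fell from 915, 924 and 899 CPM to 804, 806 and 823 CPM (log2 fold change -0.17 ± 0.0242, adjusted p = 3.22e-06, edgeR). Fau, which encodes S30 joined to a ubiquitin-like protein, was at 628, 653 and 621 CPM and at 579, 603 and 623 CPM, overlapping between the groups (log2 fold change -0.08, adjusted p = 0.0395, edgeR). Its call was lost without NC 1, NC 2, siPUM2 1 or siPUM2 2.

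Of the 21 tested genes in the list of other TOP messages, which includes Rack1 and Fau, 15 fell and none was called higher. Their median was -0.09. Over all genes tested 13.3% were called lower and 15.1% higher, and over other genes of at least 100 CPM 29.5% and 26.3%. The list's higher count was 1 at an unadjusted p under 0.05, 0 with DESeq2 and 1 with voom. Its lower count was 10 without NC 2 or siPUM2 2, where 10.6% of all genes tested were called lower in each case. Eif3h, a subunit of the initiation factor eIF3, fell from 256, 251 and 251 CPM to 223, 228 and 228 CPM (log2 fold change -0.16). Tpt1, a classic TOP message, fell by 0.13 on the log2 scale. Gas5, a TOP-type host of small nucleolar RNAs and the one tested gene of its list, was at 68.1, 72.8 and 75.8 CPM and at 69.0, 74.8 and 72.9 CPM and was not called.

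Among 18 genes that regulate TOP messages 4 fell and 2 rose, with a median of -0.02. These counts lie near the shares over all genes tested (13.3% lower and 15.1% higher). Over other genes of at least 100 CPM, a level that several of the 18 did not reach, the shares were 29.5% and 26.3%. Eif4ebp2, which encodes an mTOR-controlled inhibitor of eIF4E, was at 215, 212 and 224 CPM in NC and at 182, 181 and 182 CPM in siPUM2 (log2 fold change -0.25 ± 0.0269, adjusted p = 2.58e-08, edgeR). Its groups were far apart. Cnbp, an RNA-binding protein that contacts TOP messages, fell by 0.11 on the log2 scale. Larp4b, a La-related protein, rose from 57.7, 59.1 and 60.5 CPM to 69.6, 66.0 and 64.6 CPM (log2 fold change 0.18). The higher count was 1 without NC 3 or siPUM2 2.

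Of 20 chaperones of ribosomal proteins and assembly helpers, 11 fell and 1 rose, with a median of -0.12, and 7 fell without siPUM2 2 (all genes tested: 13.3% lower and 15.1% higher in the full fit, 10.6% lower without siPUM2 2). Rrs1, which brings the 5S particle into the early large subunit, fell from 39.9, 43.3 and 40.5 CPM to 32.2, 34.8 and 33.6 CPM (log2 fold change -0.30 ± 0.0555, adjusted p = 0.000132, edgeR). Bop1, of the PeBoW complex that processes large subunit RNA, fell by 0.17 on the log2 scale. Sbds, which helps to release eIF6 from new large subunits, rose from 104, 104 and 99.9 CPM to 115, 113 and 115 CPM (log2 fold change 0.16, adjusted p = 0.000115, edgeR). The rise of Sbds stood against the direction of the other called members.

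In the list for ribosome rescue and quality control, 5 of 11 tested genes fell and 3 rose, beside 13.3% and 15.1% of all genes tested and 29.5% and 26.3% of other genes of at least 100 CPM. Abce1, which splits ribosomes after termination, and Gcn1, which senses stalled ribosomes, fell by 0.16 and 0.17 on the log2 scale. Edf1, which marks collided ribosomes, rose by a log2 fold change of 0.17 (adjusted p = 7.92e-05, edgeR). Of 7 genes for ribosome dormancy and the link to p53, 3 fell and 1 rose, against the same shares. Serbp1 and Ccdc124, which occupy idle ribosomes, fell by 0.16 and 0.24. Cdkn1a, the p53-induced cell cycle inhibitor p21, rose from 147, 143 and 146 CPM to 174, 166 and 176 CPM (log2 fold change 0.24 ± 0.028, adjusted p = 1.29e-07, edgeR).

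**Figure D5:**
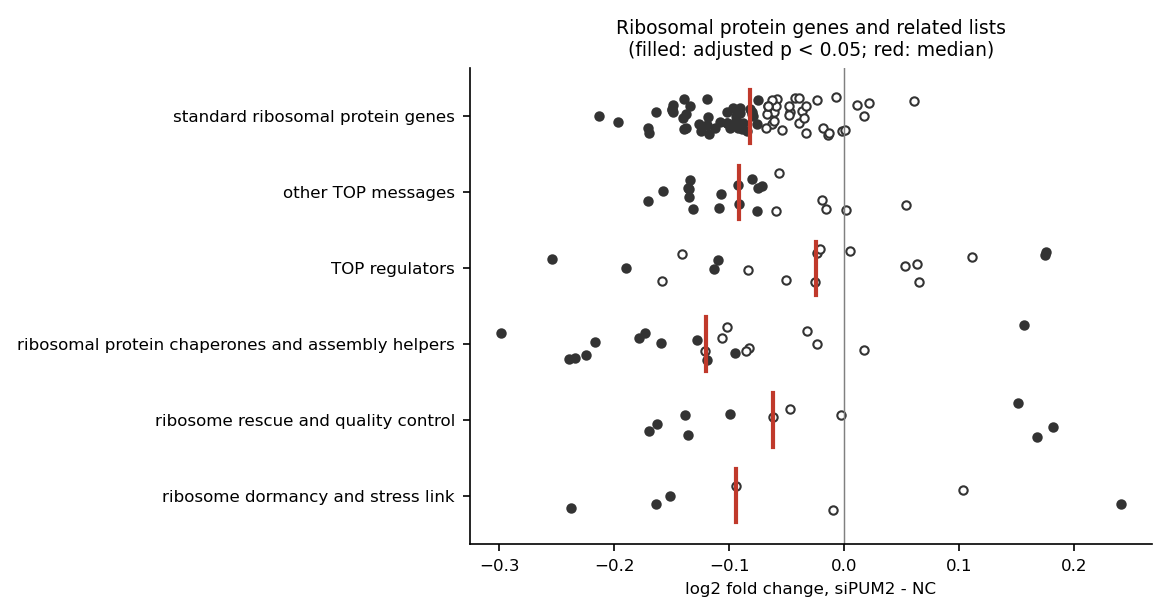
Log2 fold change of siPUM2 over NC (horizontal axis) for the 75 standard ribosomal protein genes and the tested genes of 5 related lists, each point 1 gene, filled where the adjusted p was under 0.05, with the median in red. The points of the ribosomal protein genes and of the other TOP messages lie close together around medians of -0.08 and -0.09, and the other lists spread wider, with called genes on both sides of 0.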

How the data were processed

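The 6 libraries were polyadenylated, strand-marked RNA-seq libraries, grouped by title and treatment label. The authors deposited whole-number counts per gene and a table of FPKM values; HISAT2, DESeq2 and build mRatBN7.2 are named per the submitters' processing notes. No version, annotation or counting program is given in the sources used here. No column or row was without a sample or gene name. The deposited counts were tested with edgeR 4.0.16 (quasi-likelihood, TMM, filterByExpr, group as the only term) in R 4.3.3. The filter left 12985 genes and removed 6840. The Benjamini-Hochberg adjustment ran over the 12985 genes, and calls were made at an adjusted p under 0.05. The method was tested on simulated data. Levels are TMM-scaled CPM. The members, the lists and the role groups were chosen with earlier results of these data known.

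Named genes were, by a written rule, the 6 standard genes of each subunit with the lowest p, the 3 with the highest fold change and the 3 with the highest mean FPKM, the stalk, Rpl5, Rpl11, Rpl10, Rps6, Rpsa, tested variants, Rack1, Fau, Pum2 and the 3 lowest p of each list. A few genes so chosen are not reported here. Genes named only for a role group, a copy or a ratio were chosen after their values were seen. No pair of libraries of a group agreed within sampling noise (chi-square per degree of freedom 2.07 to 3.80, against 12.6 to 14.0 for pairs of different groups). Alternatives were DESeq2 1.42.0, limma 3.58.1 (voom, and log2 of FPKM plus 1 or 0.1), other scaling, filters and thresholds, removal of the length trend, sums with near-identical copies, a replicate block, each library left out and, added after the data were seen, RefSeq's current names.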

Additional observations from a re-analysis of the deposited data

How the results depend on the processing

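The count of standard genes that fell ran from 25 to 59 of 75 over 20 alternatives, and its median log2 fold change from -0.11 to -0.07. On log2(FPKM + 1) with no filter the calls were 2246 over all genes, 13 in the large subunit, 11 in the small subunit and 2 of the variants, and the lower counts were 3 of 20 chaperones and assembly helpers, 2 of 8 Diamond-Blackfan genes and 0 of 5 genes of the tunnel rim. The variants also numbered 2 on log2(FPKM + 1) and log2(FPKM + 0.1), at an adjusted p under 0.01 and with RefSeq's names. With 1 library left out they numbered 2 to 4 and large subunit calls 16 to 35. With a replicate block the calls were 3731 over all genes, 22, 17 and 4 in the 3 classes, and 41 of the 75. Between same-numbered libraries, the deviations of log2 CPM from the group mean correlated at 0.0342, 0.0204 and 0.00270. Between differently numbered ones the correlations ran from -0.0580 to 0.0370. Whether the numbers mark a shared culture or day cannot be told from these values.

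Of 56 named genes 36 were called, and Fau, Rpl11, Rpl22l1, Rplp2, Rps13 and Rps19l2 lost the call in at least 1 setting. None of the 36 changed sign. Among uncalled genes near 0, log2 fold changes that changed sign came with the length trend removed for Gas5 (0.0229) and Rps18 (0.00608), and with the replicate block for Gas5 (0.000111). The value of Rpl35al1 was -0.00107 with a filter of 1 CPM in 3 libraries, -0.00215 with DESeq2 size factors, -0.00228 with DESeq2, -0.000771 with TMM without ribosomal protein genes, -0.00332 on log2(FPKM + 0.1), -0.00331 on both log2(FPKM + 1) settings and -0.00703 when summed with copies. With 1 library left out, the ranges were -0.0436 to 0.0356 for Gas5, -0.0274 to 0.183 for Rpl31l4, -0.0442 to 0.0381 for Rpl35al1, -0.0234 to 0.0556 for Rpl36al, -0.0166 to 0.0493 for Rpl39, -0.0216 to 0.0297 for Rpl41, -0.000114 to 0.0367 for Rpl7a, -0.0526 to 0.00602 for Rps18 and -0.144 to 0.0774 for Rps18l1. The log2 ratio of paralog to standard gene ranged from -0.0175 to 0.0366 for Rpl22l1, -0.359 to 0.00448 for Rpl27-l1, -0.168 to 0.112 for Rps10l1 and -0.156 to 0.0752 for Rps18l1. The causes were not tested. With 3 libraries a group no outlier check was made, and rows under 10 CPM are limited by their counts.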
